A study of Mus musculus with 16 samples.

Results

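The nuclear genes for the subunits of mitochondrial complex I were followed in cultured mouse germline stem (GS) cells, the in vitro form of spermatogonial stem cells. They were taken by symbol, as every gene of the deposited table whose name begins with Ndufa, Ndufb, Ndufc, Ndufs or Ndufv. Ndufa4, Ndufa4l2 and the assembly factors called Ndufaf were left out. This gave 36 genes of 21924 protein-coding genes, and all 36 passed the filter on low values (1 CPM or more in 2 or more libraries). CPM is the number of reads on a gene scaled to 1000000 reads per library. The data are 16 mRNA libraries, a pair for each of 8 groups. Wild type GS cells of the DBA/2 strain were cultured in 1% or 20% oxygen. Cells of a mixed 129 x C57BL/6 background, the Hif1a line, were kept at 1% or 20% oxygen, either labelled Hif1a KO or wild type, and the KO label follows treatment with AxCANCre, an adenovirus that delivers Cre, on the day the hypoxia began. C57BL/6 cells, the Top1mt line, were Top1mt KO or wild type and were all kept at 1% oxygen. Every culture received GDNF and FGF2 and grew on mouse embryonic fibroblast feeders, so fibroblast RNA can be in each library, and low oxygen was set in bags filled with 1% oxygen, 5% carbon dioxide and 94% nitrogen. Whether wild type cells received a control virus, and whether the 2 libraries of a group come from separate cultures, was not stated in the labels. The p-values below therefore measure the spread between the libraries of a group, pooled over the groups, which may be technical.

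Complex I, the NADH:ubiquinone oxidoreductase, is the entry point of the respiratory chain for electrons from NADH. Its matrix arm takes electrons from NADH at the tip, passes them along iron-sulfur clusters and hands them to ubiquinone at the foot, and its membrane arm pumps protons. A few core subunits carry out these reactions, some encoded by the nucleus and some by mitochondrial DNA, and many accessory subunits surround them. In low oxygen, cells commonly slow the respiratory chain, and Ndufa4l2 is a known target of hypoxia-inducible factor 1 (HIF-1), whose oxygen-labile subunit is coded by Hif1a. Top1mt is the topoisomerase that relaxes mitochondrial DNA. The 36 genes were placed by the position of their product: 10 at the NADH-oxidising tip, 6 in the quinone-reducing part of the matrix arm, 9 in the proximal and 11 in the distal membrane arm. They lie on 15 chromosomes, 2 of them (Ndufa1 and Ndufb11) on the X chromosome.

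Promoters are shown for the 3 genes that carried the most repeated changes below, Ndufv3, Ndufv1 and Ndufs8. Each run is the 250 bases before the RefSeq transcription start (build GRCm38.p6), 5′ to 3′ on the strand of the gene, at chr17:31519865-31520114 (plus strand), chr19:4012756-4013005 (minus strand) and chr19:3912775-3913024 (minus strand). Capitals mark ACGTG or GCGTG on either strand, the core letters of a hypoxia response element.
Ndufv3: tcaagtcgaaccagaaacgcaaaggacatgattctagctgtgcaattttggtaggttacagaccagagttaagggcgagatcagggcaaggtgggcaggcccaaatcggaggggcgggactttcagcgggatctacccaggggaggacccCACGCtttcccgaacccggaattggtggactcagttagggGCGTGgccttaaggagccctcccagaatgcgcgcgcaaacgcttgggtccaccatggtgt
Ndufv1: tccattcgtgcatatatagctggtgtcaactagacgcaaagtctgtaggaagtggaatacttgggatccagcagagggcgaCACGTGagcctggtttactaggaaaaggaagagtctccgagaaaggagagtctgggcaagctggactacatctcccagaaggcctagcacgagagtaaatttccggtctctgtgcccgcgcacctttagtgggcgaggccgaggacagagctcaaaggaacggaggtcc
Ndufs8: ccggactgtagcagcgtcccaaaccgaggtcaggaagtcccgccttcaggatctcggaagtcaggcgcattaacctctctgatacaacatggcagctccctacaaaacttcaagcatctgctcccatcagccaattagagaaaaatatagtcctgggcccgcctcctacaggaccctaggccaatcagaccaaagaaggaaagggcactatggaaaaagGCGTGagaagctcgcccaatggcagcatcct
All 3 runs held the core at least once, and the gene that rose (Ndufv3) and those that fell (Ndufv1 and Ndufs8) were alike in this. Promoter windows of 250 bases before to 50 bases after the start were found for 32 of the 36 genes (34 windows, since some genes have more than 1 start). Of these 34 windows, 52.9% held ACGTG or GCGTG, against 50.4% of 20150 windows of the genes in the table, so the core was about as frequent in both. A match is a string of letters and not a shown binding site.

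Another string was more frequent in these windows, which is given as a description. AAGATGGC, the core of the site of the factor YY1, was found in 7 of 34 windows (20.6%), against 3.11% of 20150 windows of table genes, with both strands searched. All 7 matches lay on the strand of the gene and inside the transcript, between bases 23 and 46 counted from the transcription start. The string holds ATG, the letters of a start codon, and whether these matches lie at translation starts was not tested. They are shown with up to 8 bases on either side (RefSeq, build GRCm38.p6, 5′ to 3′ on the strand of the gene), with the match in capitals. The runs lie for Ndufa3 at chr7:3617387-3617410 (plus strand), for Ndufa9 at chr6:126849100-126849123 (minus strand), for Ndufb8 at chr19:44555393-44555412 (minus strand), and for Ndufc1 at chr3:51408918-51408941 (minus strand). Those of the Ndufs genes lie for Ndufs4 at chr13:114388045-114388067 (minus strand), for Ndufs6 at chr13:73328434-73328457 (minus strand), and for Ndufs7 at chr10:80249465-80249488 (plus strand).
Ndufa3: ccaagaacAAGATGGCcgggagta
Ndufa9: tgtgggagAAGATGGCggccgccg
Ndufb8: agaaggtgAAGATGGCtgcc
Ndufc1: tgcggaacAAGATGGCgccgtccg
Ndufs4: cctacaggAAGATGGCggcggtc
Ndufs6: tcaccggcAAGATGGCggcggtgc
Ndufs7: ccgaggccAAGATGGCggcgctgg
The genes with this string did not move as 1 group, since in the oxygen comparisons described below Ndufa3 was called higher where Ndufa9 was called lower in the Hif1a line. The CCGGAAG core of ETS factors was in 11.8% of the windows, against 11.9% of table windows. The string GCATGCGC, part of the site of the factor NRF1, was in 8.82%, against 3.65%, which is 3 windows (Ndufa6, Ndufa8 and Ndufa11).

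Transcript levels of the subunits spanned a wide range, although the subunits enter 1 enzyme. Averaged over the 16 libraries and divided by the length of the principal transcript, Ndufa7 was highest at 226 CPM per kb, followed by Ndufa11 (122), Ndufs8 (117) and Ndufv1 (115). Lowest were Ndufa12 (16.5), Ndufab1 (13.4), which is also the acyl carrier protein of mitochondria, and Ndufb4 (7.24 CPM per kb). The highest and the lowest gene differed 31.2-fold, with a median of 68.0 CPM per kb over the 36. The fewest reads on any of them in a library were 82, on Ndufb4. Some genes share sequence with others, so their levels are less certain. Of the 50-base strings of its exons, 31.6% are shared with other genes for Ndufb6 (with the antisense gene Smim27), 28.5% for Ndufa13 (with Tssk6 and Gm12389), 21.7% for Ndufs5, 18.3% for Ndufb4 (with Ndufb4c among others) and 17.9% for Ndufs3 (with Kbtbd4 among others). The share is 17.7% for Ndufa12 (with Gm15920), 17.5% for Ndufb11, 15.6% for Ndufb9 and 11.2% for Ndufb5 (with the antisense gene Mrpl47). It is under 5% for 21 of the 36 genes, and no value is 50% or above. The strand setting of the counting was not stated.

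Across the 8 groups most subunit genes stayed within a narrow band. The ratio of the highest to the lowest group mean had a median of 1.47 over the 36 genes, against 2.01 over 10487 genes with a mean of at least 5 CPM in every group. The 36 genes had a median level of 49.5 CPM over the 16 libraries, and no set matched to them by level was compared. The ratio was under 1.5 for 20 of the 36 genes, or 55.6%, against 15.1% of the 10487. It was 2 or more for 4 genes, or 11.1%, against 50.3% of the 10487. These 4 were Ndufv3 (3.49), Ndufs8 (2.48), Ndufa1 (2.23) and Ndufb4 (2.05). Ndufc1 was steadiest, between 22.9 and 29.7 CPM in all 16 libraries. Among the core subunits Ndufs7 lay between 42.2 and 59.4 CPM, Ndufs1 between 115 and 178 CPM and Ndufs3 between 36.5 and 68.6 CPM. Ndufb4 ran from 4.96 to 11.9 CPM, highest in DBA/2 cells at 20% oxygen. Over pairs of the 36 genes the correlation of log2(CPM + 1) across the 16 libraries had a median of 0.19 (630 pairs, 403 positive). The 3 most alike pairs were Ndufb9 with Ndufs6 (Pearson r = 0.97), Ndufa9 with Ndufb8 (0.91) and Ndufs8 with Ndufv1 (0.90). These coefficients describe 16 libraries that share groups and scaling.

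**Figure D1:**
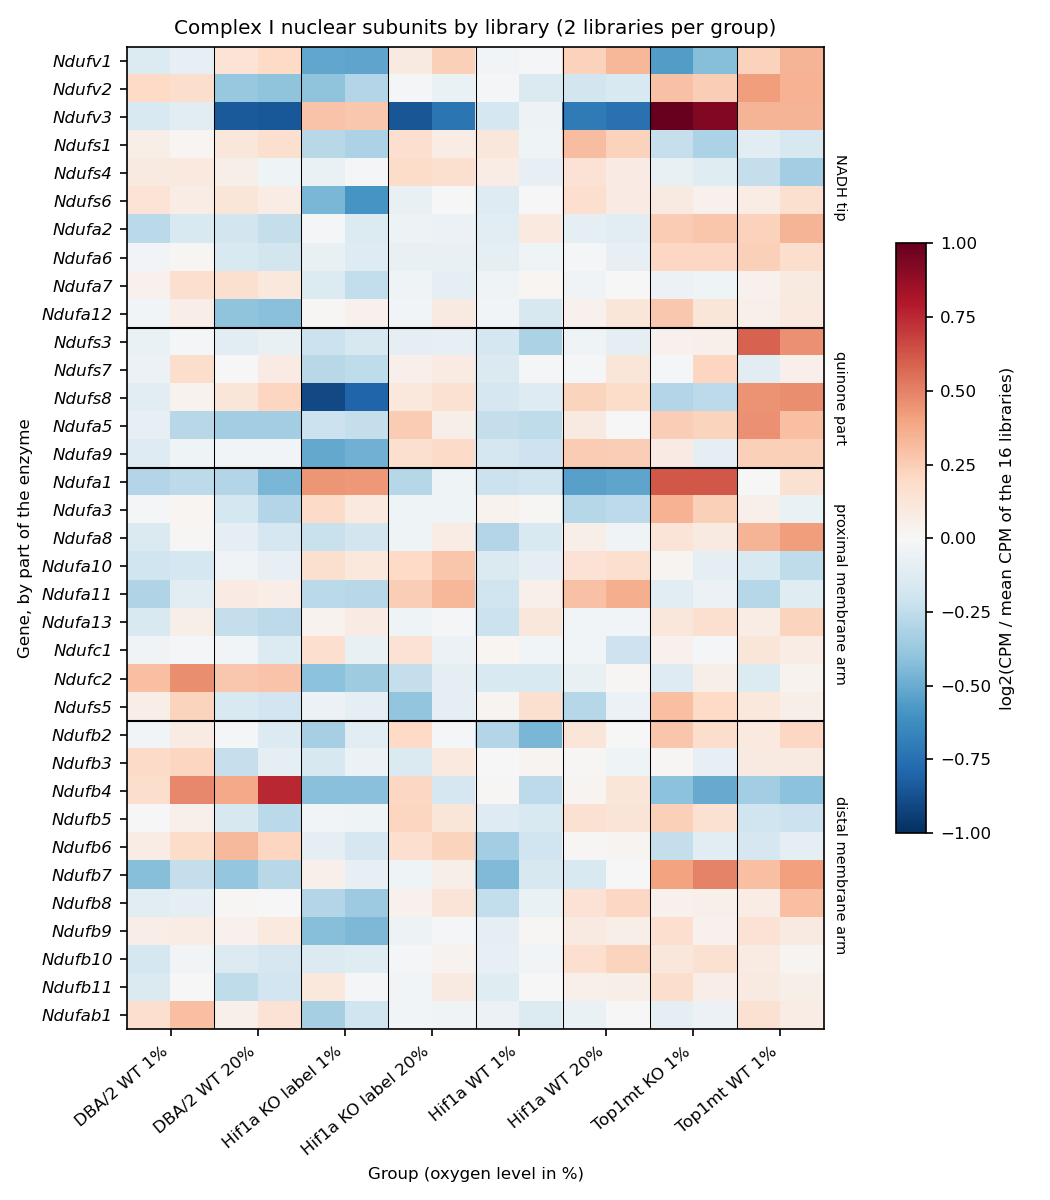
Level of 35 of the 36 genes (rows, by part of the enzyme) in each of the 16 libraries (columns, in pairs per group), as log2 of CPM over the mean CPM of the gene in the 16 libraries. Most rows are pale, and Ndufv3, Ndufa1, Ndufb4, Ndufs8 and Ndufv1 hold most of the strong colours.

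Depth ran from 11942104 to 25659895 reads on genes per library. The targeted genes were read first. Top1mt had 9.99 and 10.96 CPM in Top1mt KO libraries, against 32.8 and 34.8 CPM in wild type. Hif1a had 618 and 593 CPM in the 1% libraries labelled Hif1a KO, against 251 and 251 CPM in wild type at 1%, and at 20% it had 139 and 142 CPM in libraries labelled KO, against 116 and 118 CPM in wild type. A count over the whole gene cannot show the loss of some exons, so the value goes against the label without settling it, and "labelled" is kept for these libraries. Of 16 germ cell markers, each reached 1 CPM in at least 1 library, and so did each of 4 leukocyte markers, which summed to between 12.8 and 37.4 CPM in a library. The 8 markers of testis somatic cells summed to between 23.5 and 54.5 CPM, with 3 or 4 of them at 1 CPM or more in a library, Wt1, Sox9 and Star being the most abundant. Cyp17a1, Hsd3b1 and Insl3 of these 8 stayed under 1 CPM in all 16. Fibroblast feeder markers moved with every comparison, and their counts are given beside each. In such bulk RNA, fewer cells of a type and less RNA per cell cannot be told apart. The numbers in the library names also part 1% from 20% oxygen in the DBA/2 and Hif1a libraries, and the series text gives 2 days at 1% oxygen whereas "6d" stands in the names of the Hif1a-line libraries at 1% and "2d" in the Top1mt names. Oxygen level and any processing set can therefore not be told apart.

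The first question was what 1% oxygen did to the subunit genes. In DBA/2 cells most of them did not pass the test, Ndufv3 and Ndufv2 at the NADH tip were higher, and a few others were lower. Ndufv3, an accessory subunit of the tip, had 56.2 and 57.8 CPM at 1% oxygen, against 34.8 and 34.6 CPM at 20%. Its log2 fold change, on the log2(CPM + 1) scale used throughout and as 1% minus 20%, was 0.70 ± 0.06 (SE; limma adjusted p = 7.1e-09). Ndufv2, a core subunit with an iron-sulfur cluster that sits beside the NADH site, had 68.3 and 67.0 CPM at 1%, against 45.9 and 45.1 CPM at 20% (0.56 ± 0.06, limma adjusted p = 1.2e-07). The libraries of the 2 oxygen levels did not overlap for either gene. With 2 libraries per group, subunit genes that were not called also often did not overlap. Non-overlap is therefore given here and below only as a description. Ndufa12, an accessory subunit of the matrix arm, had 17.96 and 19.1 CPM at 1%, against 13.9 and 13.7 CPM at 20% (0.40 ± 0.09, limma adjusted p = 0.00055).

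On the falling side in DBA/2 cells stood Ndufv1, the core subunit that binds FMN and NADH and the partner of Ndufv2. It had 174 and 181 CPM at 1% oxygen, against 211 and 219 CPM at 20% (log2 fold change -0.28 ± 0.06, limma adjusted p = 0.00044). Ndufa11, a membrane subunit, had 54.3 and 61.9 CPM at 1%, against 70.8 and 69.8 CPM at 20% (-0.27 ± 0.08, limma adjusted p = 0.0046). Ndufs8, a core subunit with iron-sulfur clusters near the quinone site, had 84.3 and 93.4 CPM at 1%, against 98.9 and 105 CPM at 20% (-0.20 ± 0.06, limma adjusted p = 0.0048). Libraries of the 2 oxygen levels did not overlap for these 3 genes, and 2 of the calls rest on single libraries. Without the first library at 1% the limma adjusted p was 0.10 for Ndufa11 and 0.11 for Ndufs8, and without the second at 20% it was 0.074 for Ndufs8.

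Counted over the 36 genes in DBA/2 cells, 9 rose and 3 fell at 1% oxygen, where 31.8% of the 14841 genes tested rose and 25.5% fell. Scaled by median-of-ratios factors instead of to 1000000 reads, 7 rose and 6 fell, where 4187 of the 14841 genes tested rose and 4183 fell. Without the second library at 20% 4 rose, and without the first library at 1% 1 fell. The 9 that rose were 4 of 10 at the tip (Ndufv3, Ndufv2, Ndufa12 and Ndufa6), 3 of 9 in the proximal (Ndufa3, Ndufa13 and Ndufs5) and 2 of 11 in the distal membrane arm (Ndufb3 and Ndufb5). The median change of the 36 was 0.05, against 0.04 over all genes tested. Their summed level was 2076 ± 79.2 CPM at 1%, against 2063 ± 3.87 CPM at 20% (SD, n = 2 each). Feeder marker sums lay between 7572 and 8414 CPM at 1%, against 8221 to 10308 CPM at 20%, with 4 of 24 markers higher and 12 lower, while 3 of 16 germ cell markers were higher and 8 lower, and their part in the result was not tested.

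In wild type cells of the Hif1a line more of the subunit genes fell at 1% oxygen. Ndufv3 again stood on the rising side, with 55.1 and 60.3 CPM at 1%, against 38.1 and 37.2 CPM at 20% (log2 fold change 0.60 ± 0.06, limma adjusted p = 7.1e-08). Ndufa1, a small X-linked membrane subunit needed for assembly in humans, had 18.2 and 18.4 CPM at 1%, against 14.5 and 14.7 CPM at 20% (0.31 ± 0.09, limma adjusted p = 0.0068). Ndufa3, also of the proximal membrane arm, had 42.6 and 41.9 CPM at 1%, against 34.1 and 34.7 CPM at 20% (0.29 ± 0.07, limma adjusted p = 0.0011). For all 3, both libraries at 1% lay above both at 20%.

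Among those that fell in these cells, Ndufa9, an accessory subunit of the quinone part, had 98.2 and 95.9 CPM at 1% oxygen, against 132 and 131 CPM at 20% (log2 fold change -0.43 ± 0.05, limma adjusted p = 1.8e-06). Ndufb2 of the distal arm had 12.2 and 10.9 CPM at 1%, against 16.3 and 15.0 CPM at 20% (-0.40 ± 0.10, limma adjusted p = 0.0029). Ndufa11 had 58.2 and 69.3 CPM at 1%, against 81.9 and 86.0 CPM at 20% (-0.40 ± 0.08, limma adjusted p = 0.00022). The 2 oxygen levels did not overlap for any of these genes. Of the core subunits, Ndufs8 fell to 81.1 and 83.3 CPM at 1%, against 106 and 104 CPM at 20%, and Ndufv1 to 188 and 189 CPM, against 224 and 241 CPM (log2 fold changes -0.35 and -0.30).

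Over the 36 genes in Hif1a wild type cells, 3 rose and 17 fell, where 18.4% of all genes tested rose and 34.6% fell. After median-of-ratios scaling 6 rose and 11 fell, and without the first library at 1% 5 rose. Falls took in 5 of 6 genes of the quinone part, 6 of 11 of the distal membrane arm, 3 of 9 of the proximal arm and 3 of 10 at the tip. After scaling these were 2 of 6, 5 of 11, 2 of 9 and 2 of 10. Of the 7 core subunits 5 fell, and after scaling 3 fell and 1 rose. The median change of the 36 was -0.15, against -0.09 over all genes tested. The sum was 1984 ± 45.9 CPM at 1%, against 2207 ± 6.83 CPM at 20% (SD, n = 2 each). Feeder markers summed to 30566 to 38646 CPM at 1%, against 12883 to 13879 CPM at 20% (18 of 24 higher, 2 lower), and germ cell markers to 3627 to 3930 CPM, against 3940 to 4014 CPM (2 of 16 higher, 8 lower). Their part in the result was not tested.

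Cells labelled Hif1a KO showed the largest changes of single genes in the 3 oxygen comparisons. Ndufv3 had 76.1 and 75.1 CPM at 1% oxygen, against 34.5 and 37.6 CPM at 20%, a 2.10-fold higher mean (log2 fold change 1.05 ± 0.06, limma adjusted p = 3.4e-12). Ndufa1 had 28.7 and 28.6 CPM at 1%, against 17.4 and 20.5 CPM at 20% (0.58 ± 0.09, limma adjusted p = 6.3e-06). Ndufa3 had 47.4 and 44.4 CPM at 1%, against 40.3 and 40.3 CPM at 20% (0.18 ± 0.07, limma adjusted p = 0.016). The libraries did not overlap for these 3 genes, although the call of Ndufa3 was lost without the first library at 1% (limma adjusted p = 0.13) and without the first at 20% (0.052). After median-of-ratios scaling the rises were larger, at 1.41 for Ndufv3, 0.93 for Ndufa1 and 0.54 for Ndufa3 (limma adjusted p = 4.5e-07 for the last).

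Ndufs8 fell to 48.8 and 52.3 CPM at 1% in cells labelled Hif1a KO, against 97.9 and 101 CPM at 20% (log2 fold change -0.96 ± 0.06, limma adjusted p = 5.7e-12), so that the mean at 1% was 50.8% of that at 20%. Ndufv1 had 133 and 133 CPM at 1%, against 203 and 226 CPM at 20% (-0.68 ± 0.06, limma adjusted p = 1.4e-09). Ndufa9 had 77.5 and 79.2 CPM at 1%, against 124 and 126 CPM at 20% (-0.67 ± 0.05, limma adjusted p = 7.2e-10). In each of the 3, both libraries at 1% lay far below both at 20%. These falls were smaller but kept after median-of-ratios scaling, at -0.61 for Ndufs8, -0.32 for Ndufv1 and -0.31 for Ndufa9.

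The direction of the list as a whole depended on the scaling in these cells. With CPM as deposited, 3 of the 36 rose and 21 fell, where 25.2% of all genes tested rose and 54.7% fell. After median-of-ratios scaling 19 rose and 4 fell, 11 of the 21 falling genes had changed sign, and 4 of them were then called higher. That scaling moved the median of all genes by 0.31 (from -0.29 to 0.02) and the median of the 36 from -0.20 to 0.15. Set against the median of all genes, the 36 therefore lay slightly above it under either scaling. Called under both scalings and by edgeR and DESeq2 on recovered reads were Ndufv3, Ndufa1 and Ndufa3 as higher, and Ndufs8, Ndufv1, Ndufa9 and Ndufa11 as lower. The sum of the 36 was 1846 ± 14.2 CPM at 1%, against 2167 ± 34.0 CPM at 20% (SD, n = 2 each), and turned round after scaling, with 2279 against 2081. Feeder markers summed to 66421 to 68307 CPM at 1%, against 18226 to 21590 CPM at 20% (24 of 24 higher), and germ cell markers to 1651 to 1733 CPM, against 3235 to 3498 CPM (16 of 16 lower). Their part in the result was not tested.

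**Figure D2:**
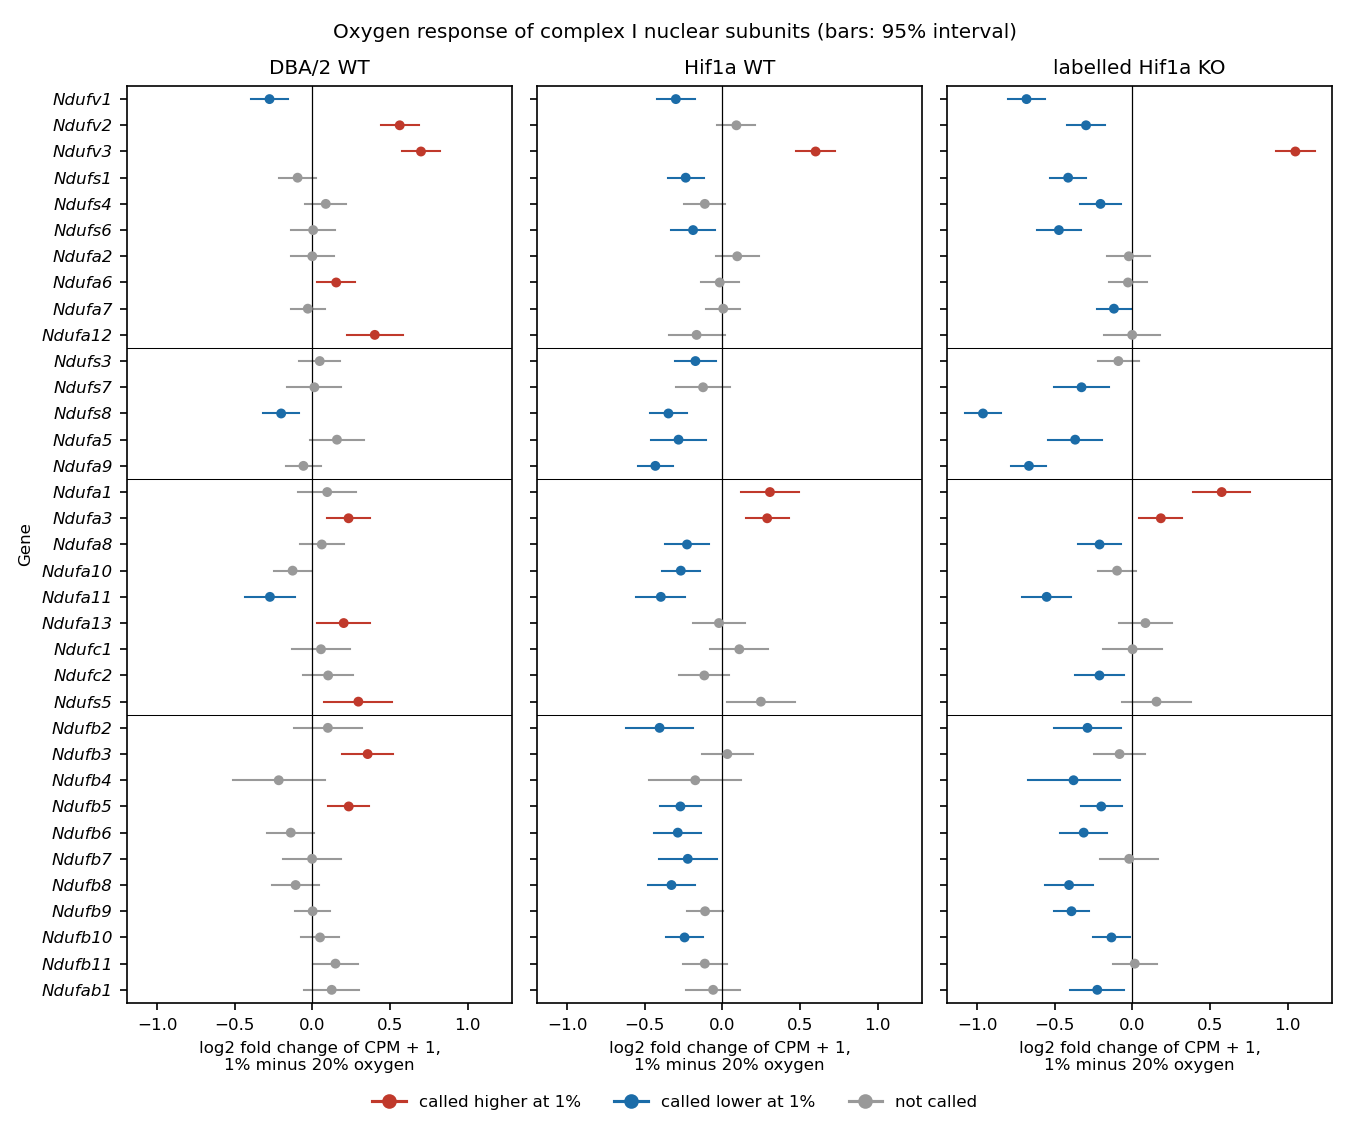
Log2 fold change of CPM + 1 at 1% minus 20% oxygen for 35 of the 36 genes in DBA/2 wild type, Hif1a wild type and cells labelled Hif1a KO, with 95% intervals from limma (bars) and calls at an adjusted p of 0.05 (colours). Ndufv3 lies on the right and Ndufv1, Ndufs8 and Ndufa11 on the left in all 3 panels, and after median-of-ratios scaling 11 of the 21 genes called lower in the right panel change sign.

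Values of 1 library do not depend on scaling when 2 of its genes are divided by each other. The ratio of Ndufv3 to Ndufv1 in CPM was 0.323 and 0.320 at 1% oxygen in DBA/2 cells, against 0.165 and 0.158 at 20%. It was 0.571 and 0.565 at 1% in cells labelled Hif1a KO, against 0.170 and 0.166 at 20%, and 0.293 and 0.319 at 1% in Hif1a wild type cells, against 0.170 and 0.155 at 20%. All 6 libraries at 20% oxygen thus lay between 0.155 and 0.170 in these lines, and all 6 at 1% lay above them. The Top1mt line, all at 1% oxygen, had 0.954 and 0.830 in KO libraries, against 0.350 and 0.327 in wild type. Both genes code for subunits of the same NADH tip. The pair was chosen after their opposite changes without overlap were seen, so the split of the ratio within each line was fixed in advance. A ratio shows that the pair changed unequally and not which of them moved.

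**Figure D3:**
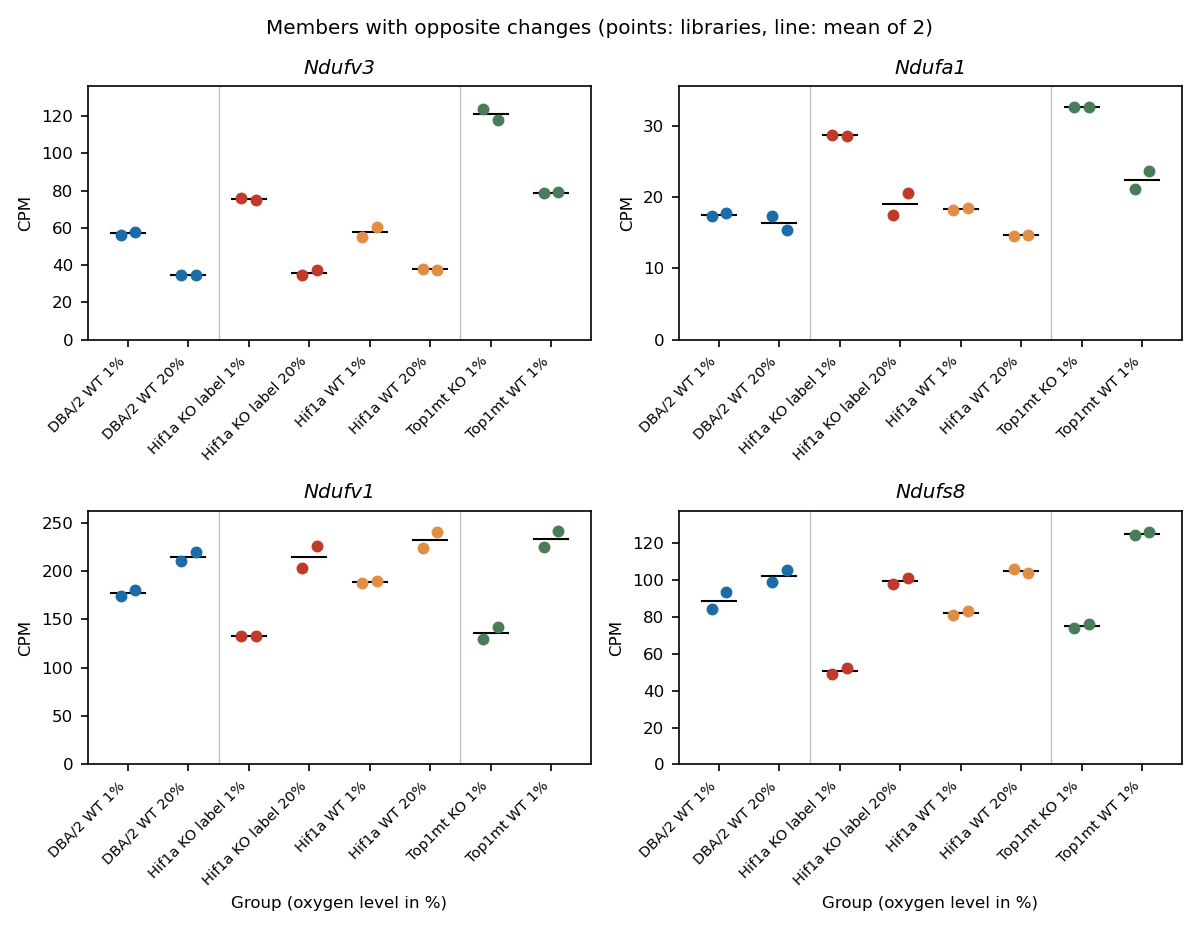
CPM of Ndufv3, Ndufa1, Ndufv1 and Ndufs8 in each library (points) with the mean of the 2 libraries of a group (lines), axes starting at 0. Ndufv3 lies between 55.1 and 124 CPM at 1% oxygen and between 34.5 and 38.1 CPM at 20%, while Ndufs8 reaches its lowest values, 48.8 and 52.3 CPM, in libraries labelled Hif1a KO at 1%.

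The next comparison asked what the Hif1a KO label changed at each oxygen level. At 1% oxygen Ndufa1 had 28.7 and 28.6 CPM in libraries labelled KO, against 18.2 and 18.4 CPM in wild type (log2 fold change 0.62 ± 0.09, KO label minus wild type, limma adjusted p = 2.8e-06). Ndufv3 had 76.1 and 75.1 CPM in libraries labelled KO, against 55.1 and 60.3 CPM in wild type (0.39 ± 0.06, limma adjusted p = 6.4e-06). Ndufb7, of the distal membrane arm, had 44.1 and 40.4 CPM under the KO label, against 31.3 and 38.1 CPM in wild type (0.28 ± 0.09, limma adjusted p = 0.0073). No library labelled KO overlapped with wild type for these 3, but Ndufb7 lost its call without the first KO-labelled library (limma adjusted p = 0.083) or the first wild type library (0.17).

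Lower under the KO label at 1% oxygen were Ndufs8, with 48.8 and 52.3 CPM, against 81.1 and 83.3 CPM in wild type (log2 fold change -0.69 ± 0.06, limma adjusted p = 1.0e-09), and Ndufv1, with 133 and 133 CPM, against 188 and 189 CPM (-0.50 ± 0.06, limma adjusted p = 1.7e-07). Ndufs6, a zinc-binding subunit of the tip, had 28.9 and 26.5 CPM, against 36.4 and 39.6 CPM (-0.44 ± 0.07, limma adjusted p = 7.0e-06). Its call did not hold with DESeq2 (adjusted p = 0.077). After median-of-ratios scaling the falls were smaller, at -0.41 for Ndufs8, -0.22 for Ndufv1 and -0.17 for Ndufs6, and the rises larger, at 0.89 for Ndufa1, 0.67 for Ndufv3 and 0.56 for Ndufb7. Over the 36 genes 5 were higher and 12 lower, where 28.3% of all genes tested were higher and 49.1% lower, and after median-of-ratios scaling 20 were higher and 3 lower. The median of the 36 was -0.05 and became 0.22, while that of all genes was -0.21 and became 0.03, a shift of 0.23. The 36 thus lay above the median of all genes under both. Of the 12 lower genes 6 changed sign. Feeder markers summed to 66421 to 68307 CPM under the KO label, against 30566 to 38646 CPM in wild type (24 of 24 higher), and germ cell markers to 1651 to 1733 CPM, against 3627 to 3930 CPM (16 of 16 lower). Their part in the result was not tested. This comparison uses the same 1% libraries as the 2 oxygen comparisons of this line.

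At 20% oxygen the KO label moved few of the subunit genes. Ndufa1 had 17.4 and 20.5 CPM under the label, against 14.5 and 14.7 CPM in wild type (log2 fold change 0.35 ± 0.09, limma adjusted p = 0.0081). Ndufa3 had 40.3 and 40.3 CPM, against 34.1 and 34.7 CPM (0.22 ± 0.07, limma adjusted p = 0.020). Ndufb10, of the distal arm, had 58.2 and 59.9 CPM, against 65.8 and 68.2 CPM (-0.18 ± 0.06, limma adjusted p = 0.031). With these, 2 of 36 were higher and 1 lower, where 12.9% of all genes tested were higher and 9.55% lower. All 3 calls were fragile to single libraries. Without the second library labelled KO the limma adjusted p was 0.14 for Ndufa1, 0.091 for Ndufa3 and 0.082 for Ndufb10, and without the first wild type library it was 0.060, 0.12 and 0.084. Ndufa3 also lost its call without the first library labelled KO (0.063) or the second of wild type (0.073), as did Ndufb10 (0.13 and 0.17). Feeder markers summed to 18226 to 21590 CPM under the label, against 12883 to 13879 CPM in wild type (21 of 24 higher), and germ cell markers to 3235 to 3498 CPM, against 3940 to 4014 CPM (13 of 16 lower), and their part in the result was not tested.

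Whether the oxygen response itself differed under the KO label was tested as an interaction. It was larger for Ndufv3 by 0.45 ± 0.08 on the log2 scale (limma adjusted p = 0.00015), and more negative for Ndufs8 by -0.62 ± 0.08 (limma adjusted p = 3.0e-06). Both held after median-of-ratios scaling, at 0.72 and -0.35, and with edgeR and DESeq2. Ndufv2 (-0.39 ± 0.08, limma adjusted p = 0.00053) and Ndufv1 (-0.38 ± 0.08, limma adjusted p = 0.00057) did not hold, with -0.12 and -0.11 after scaling (limma adjusted p = 0.23 and 0.26). Of the 36 genes 1 was higher and 6 lower, where 19% of all genes tested were higher and 39% lower. After scaling, which moved the median of all genes by 0.23, 14 were higher and 1 lower. Feeder markers moved with the interaction, with 20 of 24 higher (24 after scaling), and so did germ cell markers, with 15 of 16 lower (13 after scaling), and their part in the result was not tested. Without the second wild type library at 1% 3 were higher, and without the second library labelled KO at 20% 2 were.

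**Figure D4:**
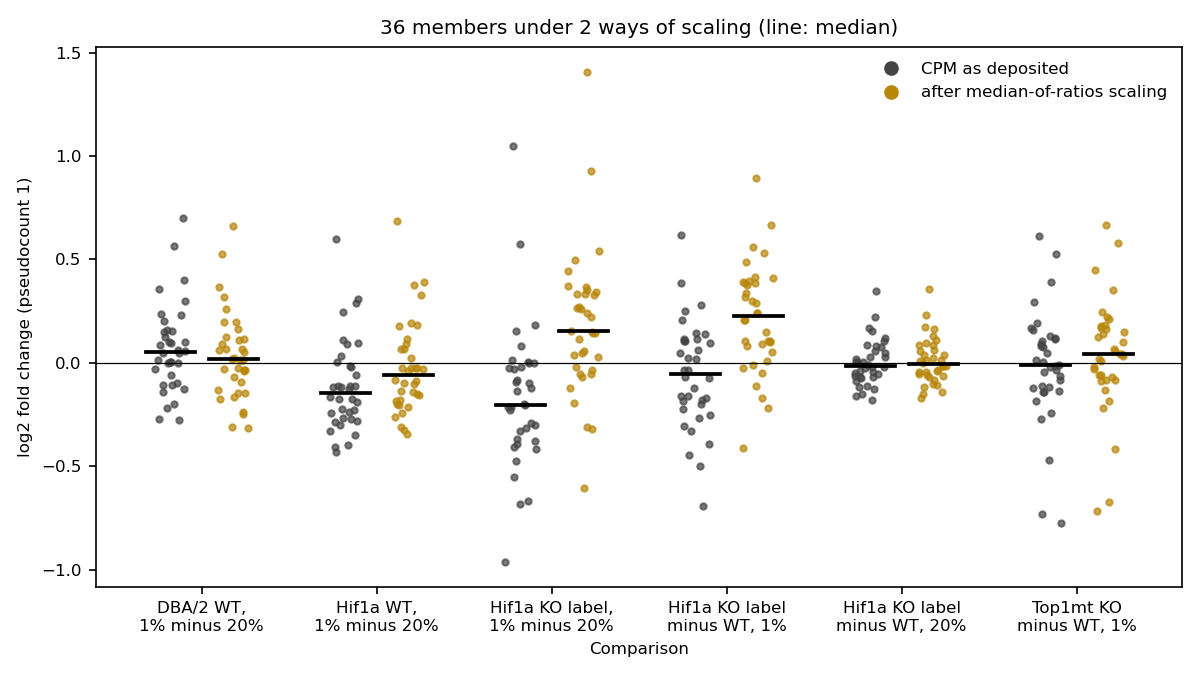
Log2 fold changes of the 36 genes (points) and their medians (lines) in 6 comparisons, with CPM as deposited (grey) and after median-of-ratios scaling (gold). In cells labelled Hif1a KO the median moves from -0.20 to 0.15 for 1% minus 20% oxygen and from -0.05 to 0.22 for KO label minus wild type at 1%, while Ndufv3 stays highest and Ndufs8 lowest in both for the first of these.

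In the Top1mt line the question was what loss of the mitochondrial topoisomerase did at 1% oxygen. Ndufv3 had 124 and 118 CPM in KO libraries, against 78.8 and 79.1 CPM in wild type (log2 fold change 0.61 ± 0.06, KO minus wild type, limma adjusted p = 4.3e-08). Ndufa1 had 32.6 and 32.6 CPM in KO libraries, against 21.1 and 23.6 CPM in wild type (0.53 ± 0.09, limma adjusted p = 4.0e-05). Ndufb5, of the distal membrane arm, had 46.4 and 43.8 CPM in KO libraries, against 34.2 and 33.9 CPM in wild type (0.39 ± 0.06, limma adjusted p = 2.5e-05). Both KO libraries lay above both wild type libraries for these 3 genes.

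Some core subunits of the matrix arm fell in the Top1mt KO. Ndufv1 had 130 and 142 CPM in KO libraries, against 225 and 242 CPM in wild type (log2 fold change -0.77 ± 0.06, limma adjusted p = 1.4e-09), so the KO mean was 58.4% of that of wild type. Ndufs8 had 74.2 and 76.1 CPM in KO libraries, against 124 and 126 CPM in wild type (-0.73 ± 0.06, limma adjusted p = 2.2e-09). Ndufs3, a core subunit of the quinone part, had 47.0 and 47.1 CPM, against 68.6 and 62.6 CPM (-0.47 ± 0.06, limma adjusted p = 3.5e-06). The KO and wild type libraries did not overlap for these 3. Ndufs1, the core subunit that carries several iron-sulfur clusters of the tip, had a smaller change of -0.14 that was called with limma on deposited CPM and not by all of the other methods.

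Over the 36 genes 6 were higher and 6 lower in the Top1mt KO, where 25.2% of all genes tested were higher and 33.2% lower, and scaling left this near 8 and 5. The others that were higher were Ndufa3, Ndufs4 and Ndufa10, and the other lower ones Ndufa8 and Ndufa9. Of the 7 core subunits 4 were lower, and after scaling 3 were lower and 1 higher. The 7 together made up 28.4% and 29.3% of the CPM of the 36 genes in KO libraries, against 34.8% and 34.6% in wild type. The like share was 30.1% and 30.8% at 1% oxygen under the Hif1a KO label, against 35.0% and 34.8% at 20%. It was 34.9% and 33.2% at 1% in Hif1a wild type, against 35.5% and 35.6% at 20%, and 33.9% and 33.3% at 1% in DBA/2 cells, against 35.6% and 36.5% at 20%. The core share was thus lower in both libraries of the first group of each pair, and this share does not depend on scaling. It includes Ndufv1 and Ndufs8, already named for their falls. In Top1mt KO against wild type the core summed to 626 against 796 CPM, Ndufv1 was 136 against 233 CPM and Ndufs8 75.1 against 125 CPM. The core subunit Ndufv2 rose in DBA/2 cells, to 67.6 CPM at 1% against 45.5 CPM at 20%. A core share without Ndufv1 and Ndufs8 was not computed. The sum of the 36 was 2168 ± 12.6 CPM in KO libraries, against 2297 ± 31.5 CPM in wild type (SD, n = 2 each). Feeder markers summed to 46478 to 47469 CPM in KO libraries, against 24352 to 24386 CPM in wild type (24 of 24 higher), and germ cell markers to 2364 to 2385 CPM, against 3229 to 3310 CPM (1 of 16 higher, 15 lower). Their part in the result was not tested.

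Ndufs8 and Ndufv1, which moved together, are also near each other in the genome. In GENCODE M21 (build GRCm38) they lie on the minus strand at chr19:3908863-3912774 and chr19:4007384-4012806, with 94610 bases between them, and Ndufv3 lies at chr17:31520115-31531331 on the plus strand. The table holds 9 protein-coding genes from the stretch between Ndufs8 and Ndufv1, of which 5 passed the filter. In Top1mt KO cells 1 of these 5 was higher and 2 lower, with a median change of -0.35. Of all genes tested 25.2% were higher and 33.2% lower in these cells, with a median of -0.04. In cells labelled Hif1a KO 3 were higher and 1 lower at 1% against 20% oxygen, with a median of 0.46. There 25.2% of all genes tested were higher and 54.7% lower, with a median of -0.29. The 5 neighbours tested thus did not all move in 1 direction in those libraries, and a part of position was not tested.

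Wild type cells of the Hif1a line and of DBA/2 were also compared. At 20% oxygen 12 of the 36 genes were higher and 4 lower in Hif1a-line wild type than in DBA/2 cells, where 26.4% of all genes tested were higher and 22.6% lower. Ndufa12 had 18.9 and 19.9 CPM in the Hif1a line, against 13.9 and 13.7 CPM in DBA/2 (log2 fold change 0.46 ± 0.09, limma adjusted p = 0.00020). Ndufa5 had 28.2 and 26.6 CPM in the Hif1a line, against 20.9 and 20.9 CPM in DBA/2 (0.38 ± 0.08, limma adjusted p = 0.00098), and Ndufb5 43.7 and 43.0 CPM, against 35.2 and 32.7 CPM (0.34 ± 0.06, limma adjusted p = 0.00018). None of these libraries overlapped. Lower in the Hif1a line were Ndufb4, with 7.17 and 7.65 CPM, against 9.13 and 11.9 CPM in DBA/2 (-0.44 ± 0.14, limma adjusted p = 0.015), and Ndufc2, with 45.5 and 48.2 CPM, against 57.9 and 58.4 CPM (-0.31 ± 0.08, limma adjusted p = 0.0027). Ndufb6 had 38.3 and 38.7 CPM in the Hif1a line, against 47.4 and 44.0 CPM in DBA/2 (-0.24 ± 0.07, limma adjusted p = 0.0094). Ndufb4 lost its call without the second DBA/2 library (limma adjusted p = 0.22) or the first of the Hif1a line (0.086), and Ndufb6 without the first DBA/2 library (0.11) or the first of the Hif1a line (0.052). The count of 4 lower genes became 1 without the first library of the Hif1a line and 2 without the first of DBA/2. Feeder markers summed to 12883 to 13879 CPM in the Hif1a line, against 8221 to 10308 CPM in DBA/2 (17 of 24 higher, 1 lower), and 3 of 16 germ cell markers were higher and 9 lower, and their part in the result was not tested.

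The oxygen response of Hif1a-line wild type was lower than that of DBA/2 for 10 of the 36 genes and higher for 0, where 30.9% of all genes tested were lower and 15.1% higher. Names of the Hif1a-line libraries at 1% carry "6d", and those of DBA/2 carry no day. Line, time at 1% oxygen and any processing set can therefore not be told apart here. At an unadjusted p under 0.05 limma gave 13 lower and 0 higher, and at an adjusted p under 0.05 edgeR gave 6 lower and 1 higher and DESeq2 4 lower and 0 higher. Over all genes tested edgeR gave 3052 lower and 3252 higher, and DESeq2 2314 lower and 2680 higher. The differences were -0.57 ± 0.12 for Ndufa12 (limma adjusted p = 0.00090), -0.51 ± 0.09 for Ndufb5 (limma adjusted p = 0.00015) and -0.50 ± 0.15 for Ndufb2 (limma adjusted p = 0.0085), and the last did not hold with DESeq2 (adjusted p = 0.078). Ndufb5 shows the pattern plainly. It had 36.1 and 35.5 CPM at 1% in the Hif1a line, against 43.7 and 43.0 CPM at 20%, and 39.4 and 40.9 CPM at 1% in DBA/2 cells, against 35.2 and 32.7 CPM at 20%. Median-of-ratios scaling moved the median of all genes by 0.12 in this comparison, after which 6 of the 36 were lower and 1 higher. Without the second DBA/2 library at 1%, 6 were lower. Of the feeder markers 18 of 24 had a higher response in the Hif1a line and 3 a lower one, and of the germ cell markers 4 of 16 and 2, and their part in the result was not tested.

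Subunits encoded by mitochondrial DNA parted from the nuclear ones most in DBA/2 cells. Their summed CPM over that of the 36 nuclear genes was 5.43 at 1% oxygen in DBA/2 cells, against 4.24 at 20% (means of 2 libraries). In Hif1a wild type this ratio was 4.29 and 3.42 in the libraries at 1%, against 3.27 and 3.34 at 20%. Under the Hif1a KO label it was 3.26, against 3.31, and in the Top1mt KO 3.19, against 3.38 in wild type (means of 2 libraries). Of the 7 mt-Nd genes, mt-Nd3 and mt-Nd4l are listed at 0 in every library. Of their 50-base strings 98.0% and 98.8% are shared with other genes, as are 62.2% of those of mt-Nd4. These levels and the mt-Nd sums are therefore less certain. The other 5 mt-Nd genes were tested. Their sum was 11246 ± 656 CPM at 1% oxygen in DBA/2 cells, against 8750 ± 269 CPM at 20%, with 5 of 5 higher (4 of 5 after median-of-ratios scaling), while the sum of the nuclear 36 differed by less than the spread at 1%. Of all genes tested 31.8% were higher there, and 4187 of 14841 after scaling. The genes mt-Nd6 (log2 fold change 0.92) and mt-Nd5 (0.57) had the smallest adjusted p (limma, 2.7e-06 and 1.3e-05). In Hif1a wild type the sum was 7644 ± 1042 CPM at 1%, against 7295 ± 139 CPM at 20%. There 1 of 5 was higher, against 18.4% of all genes tested. Under the Hif1a KO label the mt-Nd sum was 6024 ± 263 CPM at 1%, against 7169 ± 535 CPM at 20%, with 4 of 5 lower, against 54.7% of all genes tested. But after median-of-ratios scaling 1 of 5 was higher and 0 lower, where 5917 of 14841 genes tested were higher and 5255 lower. In the Top1mt KO the mt-Nd sum was 6914 ± 368 CPM, against 7760 ± 117 CPM in wild type (SD, n = 2 each), with 1 of 5, mt-Nd5, lower at -0.34 (limma adjusted p = 0.0020). Of all genes tested 33.2% were lower in that comparison. Poly(A) selection catches mitochondrial transcripts in its own way, so their level relative to nuclear ones is not a ratio of molecules.

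**Figure D5:**
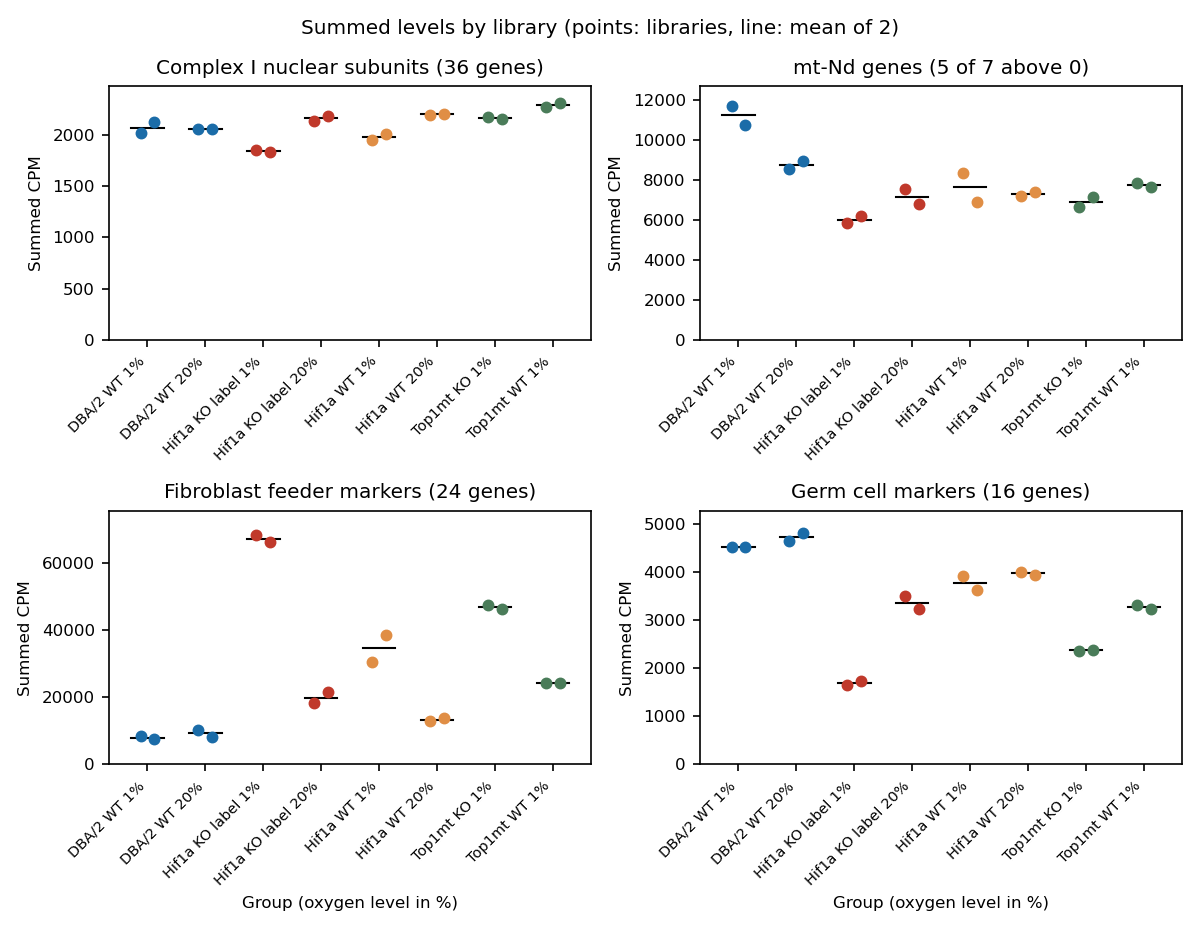
Summed CPM per library (points, with the mean of the 2 libraries as a line) of the 36 nuclear genes, the mt-Nd genes, 24 fibroblast feeder markers and 16 germ cell markers, axes starting at 0. The nuclear sum lies between 1836 and 2319 CPM in all 16 libraries, while feeder markers reach 66421 to 68307 CPM in libraries labelled Hif1a KO at 1% oxygen.

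Genes that build complex I and those of the later complexes were read beside the 36 from lists chosen with earlier results known. Of 17 assembly factors, 5 were higher (29.4%, against 31.8% of all genes tested) and 2 lower (11.8%, against 25.5%) at 1% oxygen in DBA/2 cells, with Ndufaf1 at 0.50 and Timmdc1 at 0.32 (limma adjusted p = 4.7e-05 and 9.0e-05). Under the Hif1a KO label 1 was higher (5.88%, against 25.2% of all genes tested) and 14 lower (82.4%, against 54.7%) at 1% oxygen with a median of -0.55, below the -0.20 of the 36 subunit genes and the -0.29 of all genes tested. After median-of-ratios scaling 3 were higher and 9 lower, with a median of -0.21, where that of the 36 was 0.15. Dmac2 (-0.90) and Tmem186 (-0.86) had the smallest adjusted p (limma, 3.9e-11 and 3.6e-10), and Tmem186 had 19.2 and 19.6 CPM at 1%, against 36.8 and 35.5 CPM at 20%. In the Top1mt KO 3 of 17 were higher (17.6%, against 25.2% of all genes tested) and 7 lower (41.2%, against 33.2%), and after scaling 4 and 3. Among the 7 were Ndufaf1 (-0.62) and Ndufaf5 (-0.57, limma adjusted p = 3.6e-06 and 4.4e-05).

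Nuclear subunits of complexes II to V, 38 genes, were counted in the same way. In DBA/2 cells 12 rose and 8 fell at 1% oxygen, in Hif1a wild type 2 rose and 15 fell, and under the Hif1a KO label 3 rose and 25 fell with a median of -0.17. The shares that rose were 31.6%, 5.26% and 7.89%, against 31.8%, 18.4% and 25.2% of all genes tested, and those that fell were 21.1%, 39.5% and 65.8%, against 25.5%, 34.6% and 54.7%. After median-of-ratios scaling the counts were 11 and 10, 7 and 7, and 24 and 5 with a median of 0.19, so the direction of this list in cells labelled Hif1a KO also turned round with the scaling. On CPM as deposited, Uqcrc1 of complex III and Sdha of complex II had the smallest adjusted p in the Hif1a line, with log2 fold changes of -0.30 and -0.24 in wild type (limma adjusted p = 1.0e-05 and 5.9e-05) and -0.63 and -0.54 under the KO label (8.1e-11 and 2.7e-10). In the Top1mt KO 9 were higher (23.7%, against 25.2% of all genes tested) and 6 lower (15.8%, against 33.2%), and 13 and 5 after scaling. Ndufa4, since assigned to complex IV, had between 72.8 and 125 CPM in the 16 libraries. Ndufa4l2 had 11.8 and 11.5 CPM at 1% oxygen in DBA/2 cells, against 0.791 and 0.725 CPM at 20%, 57.7 and 71.9 CPM at 1% in Hif1a wild type, against 0.980 and 1.00 CPM at 20%, and 165 and 156 CPM at 1% under the KO label, against 1.93 and 1.00 CPM at 20%. In the Top1mt line it had 81.0 and 78.7 CPM in KO libraries, against 31.0 and 31.2 CPM in wild type.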

How the data were processed

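RNA of 16 libraries in 8 groups of 2 was measured by TruSeq stranded mRNA sequencing, per the labels' protocols. The deposited table gives CPM, computed by the authors, for 21924 protein-coding genes, with columns that sum to 1000000. The tools cutadapt 1.16, STAR 2.6.0c, HTSeq 0.11.2 and DESeq2 1.22.2 and the build mm10 were used per the submitters' processing notes, which give no order or setting. The annotation, strand setting and read filters are not given in the sources used here. Dividing each CPM by what a single read is worth gave a whole number for 100% of values (tolerance 0.01), so reads were recovered, 11942104 to 25659895 per library, with 1 read worth 0.0390 to 0.0837 CPM. Between the 2 libraries of a group, chi-square per gene was 1.79 to 7.60, and no pair was identical. The 7.60 belongs to Hif1a wild type at 1% oxygen, and the next highest was 3.68, for cells labelled Hif1a KO at 20%. The limma spread is shared over groups, so its SE and p do not show the wider difference within that pair.

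Values were tested as log2(CPM + 1) with limma 3.58.1 (R 4.3.3), fitting a mean for each group to all 16 libraries, with a mean-variance trend in the moderated spread and without a block for library number. The filter left 14841 genes reaching 1 CPM in 2 or more libraries. A gene was called where its p, adjusted by Benjamini-Hochberg over these genes, was under 0.05. The script was tested on simulated data. A pseudocount of 0.5, no filter, median-of-ratios scaling, edgeR 4.0.16 and DESeq2 1.42.0 on recovered reads, a replicate block, only the compared groups, and each library left out were tried as alternatives. limma was chosen because the deposited unit is CPM. edgeR called between 3165 and 11059 genes in a comparison and DESeq2 between 2409 and 10294. Library numbers did not pair the samples.

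Genes named library by library were the up to 3 called members with the largest rise and the up to 3 with the largest fall in each comparison, with a mean of at least 5 CPM in a compared group. The 7 core subunits were given in ranges, and also named were the targeted genes, Ndufa4 and Ndufa4l2. The 3 promoters and the AAGATGGC windows were chosen after values were seen. The members and lists were chosen with earlier results of these data known. Gene coordinates and lengths are from GENCODE M21 (GRCm38), and promoters from RefSeq (GRCm38.p6). The values of 1 subunit gene are not reported here by name, although it is included in the counts and sums.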

Additional observations from a re-analysis of the deposited data

Results flagged for a closer look

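The results named here were picked out because the oxygen response of a gene differed between 2 groups by a test of the difference itself (limma, with all 16 libraries). Under the Hif1a KO label, relative to wild type of the same line, the response of Ndufv3 was higher by 0.45 ± 0.08 (SE, log2 scale; limma adjusted p = 0.00015) and those of Ndufs8, Ndufv2 and Ndufv1 differed by -0.62 ± 0.08, -0.39 ± 0.08 and -0.38 ± 0.08 (limma adjusted p = 3.0e-06, 0.00053 and 0.00057). In Hif1a-line wild type, relative to DBA/2, the responses of Ndufa12, Ndufb5 and Ndufb2 differed by -0.57 ± 0.12, -0.51 ± 0.09 and -0.50 ± 0.15 (limma adjusted p = 0.00090, 0.00015 and 0.0085). Line and time at 1% oxygen cannot be told apart in this second comparison. As given above, the differences of Ndufv2 and Ndufv1 under the KO label did not hold after median-of-ratios scaling. That of Ndufb2 between the lines did not hold with DESeq2.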

How the results depend on the processing

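Values here are counts of the 36 subunit genes called higher and lower. Median-of-ratios scaling gave 7 and 6 for oxygen in DBA/2 cells, 6 and 11 in Hif1a wild type, 19 and 4 under the Hif1a KO label, 20 and 3 for the KO label at 1% oxygen, 14 and 1 for the interaction, and 1 and 6 for the difference between the lines. Over all genes tested it gave 4187 and 4183, 3643 and 3694, 5917 and 5255, 5942 and 5030, 4935 and 3105, and 3138 and 2951. Recovered reads with edgeR gave 7 and 7, 6 and 11, 17 and 5, 20 and 4, 14 and 1, and 1 and 6 in the same comparisons, and 2 and 0 for the KO label at 20%. Over all genes tested edgeR gave 4411 and 4432, 3690 and 3633, 5587 and 5472, 5672 and 5214, 4240 and 3448, and 3252 and 3052. For the KO label at 20% it gave 2036 and 1129. DESeq2 gave 6 and 4, 4 and 7, 17 and 4, 20 and 2, 12 and 1, and 0 and 4, and 1 and 0 for the KO label at 20%. Over all genes tested DESeq2 gave 3832 and 3810, 3219 and 3060, 5568 and 4726, 5581 and 4464, 4032 and 2514, and 2680 and 2314. For the KO label at 20% it gave 1588 and 821. The scaled sums of the 36 were 1927 at 1% and 1965 at 20% oxygen in DBA/2, 2279 and 2081 under the Hif1a KO label, 2014 and 2107 in Hif1a wild type, and 2193 in the Top1mt KO against 2236 in its wild type. The cause of the changed directions was not tested.

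Leaving out single libraries gave 4 to 9 higher and 1 to 3 lower for oxygen in DBA/2, 3 to 5 and 12 to 18 in Hif1a wild type, and 2 to 4 and 16 to 18 under the KO label. The KO label gave 4 to 7 and 8 to 13 at 1% oxygen, and 0 to 1 and 0 to 1 at 20%. The Top1mt KO gave 4 to 6 and 5 to 6, the interaction 1 to 3 and 5 to 7, the difference between the lines 0 and 6 to 13, and the lines at 20% oxygen 8 to 10 and 1 to 3. An arm left with 1 library was assumed to vary like the other groups.

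Library numbers do not pair the samples. Over 28 pairs of groups the correlation of same-numbered deviations ran from -0.21 to 0.27, with 5 over 0.1. With a replicate block the KO label at 20% gave 2 higher and 2 lower, as it did with only the compared groups fitted, and other counts stayed within 1.5 times. The up to 3 called subunit genes named for each direction kept their sign in that comparison under every alternative run, while other subunit genes changed sign with the scaling.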
